A study of Mus musculus with 2 samples.

Results

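The genes described here were 10 of the 13 protein-coding genes of the mouse mitochondrial genome, mt-Nd1, mt-Nd2, mt-Nd3, mt-Nd4, mt-Nd5, mt-Cytb, mt-Co1, mt-Co2, mt-Co3 and mt-Atp6. They were taken by name from the 32285 genes of 1 RNA library, with no threshold on their values. The library came from SPARC-seq, an assay in which each barcoded place on the tissue yields both transcripts and chromatin accessibility, and the labels give the RNA as polyA RNA. The tissue was labelled as brain of an E18.5 C57BL/6 mouse embryo homozygous for a Ctcf mutation, CTCF R567W, made by CRISPR/Cas9 editing. No wild-type library and no replicate was analysed here, so every value describes this 1 library and none of the differences below has a test. Each barcode consists of 2 segments of 8 bases, and the barcodes are treated as spots of a grid, each of which can hold several cells. A strip is the set of spots that share a first or a second segment.

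Mitochondria keep a small circular genome whose protein-coding genes all encode subunits of the respiratory chain and of ATP synthase. The members include 5 core subunits of complex I (NADH dehydrogenase, the mt-Nd genes), cytochrome b of complex III (mt-Cytb), the 3 core subunits of complex IV (cytochrome c oxidase, the mt-Co genes) and a proton channel subunit of ATP synthase, complex V (mt-Atp6). The partner subunits are encoded in the nucleus, made in the cytosol and imported. The genome is transcribed as long precursors, the messages are cut out, mostly at the tRNAs that lie between them, and most are polyadenylated. Skeletal muscle and neurons are both known for a high demand for ATP made by this chain.

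The 3′ ends of the messages are shown because the library is labelled as polyA RNA, and the tail joins the message there. Below are the last 30 bases of each member in the RefSeq sequence of the GRCm38 mitochondrial chromosome, sense strand (all 10 lie on the plus strand), 5′ to 3′, with the encoded stop codon, or the part of it that is encoded, in capitals. Positions are those of GENCODE M21.
mt-Nd1 (chrM:3678-3707): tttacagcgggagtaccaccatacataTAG
mt-Nd2 (chrM:4922-4951): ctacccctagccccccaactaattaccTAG
mt-Nd3 (chrM:9777-9806): acacaaaaaggattagaatgaacagagTAA
mt-Nd4 (chrM:11515-11544): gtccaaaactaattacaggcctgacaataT
mt-Nd5 (chrM:13536-13565): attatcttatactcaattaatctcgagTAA
mt-Cytb (chrM:15259-15288): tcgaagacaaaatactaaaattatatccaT
mt-Co1 (chrM:6843-6872): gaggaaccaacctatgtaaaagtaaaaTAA
mt-Co2 (chrM:7667-7696): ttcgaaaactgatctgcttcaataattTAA
mt-Co3 (chrM:9361-9390): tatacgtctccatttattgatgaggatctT
mt-Atp6 (chrM:8578-8607): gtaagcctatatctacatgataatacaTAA
In mt-Nd4, mt-Cytb and mt-Co3 the gene ends on a single T, and the remaining bases of the stop codon are known to come from the poly(A) tail. The other 7 members encode the whole stop codon, TAA in 5 of them and TAG in mt-Nd1 and mt-Nd2.

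Several members have near-identical copies in the nuclear chromosomes of the same genome, which bears on how their reads could be placed. A block on chromosome 1 repeats mt-Co2 (24614882 to 24615565), mt-Atp6 (24613971 to 24614651) and mt-Co3 (24613188 to 24613971) in full at 100% identity, and 345 of the 348 bases of mt-Nd3 (24612772 to 24613116). It also repeats the first 876 of the 1378 bases of mt-Nd4 at 100% identity. mt-Co1 has a full-length copy of 1545 bases at 97.6% identity on chromosome 2 (22588103 to 22589647), inside Myo3a, and the last 483 bases of the gene, at its 3′ end, are repeated at 99.8% identity in the block on chromosome 1 (24615706 to 24616188). mt-Nd2 and mt-Nd5 have longest matches of 511 bases at 96.7% and 955 bases at 95.2% identity, and mt-Nd1 and mt-Cytb have no nuclear match of at least 100 bases and 95% identity. The pseudogenes annotated at these copies are not among the genes counted, and how reads that match both places were assigned is not given in the sources used here. The levels of mt-Co2, mt-Co3, mt-Atp6 and mt-Nd3 are therefore uncertain, and those of mt-Co1 and mt-Nd4 in part.

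The library held 8726497 UMIs (unique molecular identifiers, each counting 1 captured molecule) over 1993 spots, with 907 to 15365 UMIs per spot and a median of 4159. Gm42418, an annotated gene that overlaps ribosomal RNA sequence, had the most UMIs and took 5.14% of the library. Neuron genes were present, with 12401 UMIs for Elavl3 and 9856 for Mapt, but a list of 12 muscle genes held 0.620% of the library against 0.629% for a list of 12 neuron genes. Globin, collagen and epithelial genes were also counted, so markers of tissues other than the labelled brain were present. Intervals below are 95% intervals (exact Poisson for levels, exact Clopper-Pearson for shares, exact conditional binomial for ratios), and they cover counting error only.

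The 10 members together held 62951 UMIs, 0.721% of the library (0.716% to 0.727%). In single spots their share ran from 0.252% to 1.39% with a median of 0.709%, and the highest share of all 13 mitochondrial coding genes in a spot was 1.46%. A spot held 4 to 119 member UMIs, with a median of 30. The median spot had 8 of the 10 members with at least 1 UMI, and 282 spots had all 10.

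mt-Co1, which encodes the catalytic subunit of cytochrome c oxidase, led by a wide margin. It had 20936 UMIs (20653 to 21222), 33.3% of the members' total, stood in rank 10 among all genes, and was missing in only 5 of the 1993 spots. It alone had the most UMIs of the members in 1704 spots, 85.5% of them. mt-Cytb followed with 7352 UMIs, mt-Nd1 with 7037, mt-Co2, the subunit that takes electrons from cytochrome c, with 6939, and mt-Nd4 with 6080. mt-Co3 had 5550 UMIs, mt-Atp6 3693, mt-Nd2 2422, mt-Nd5 1799 and mt-Nd3 1143. At this depth the less counted members were read in part of the spots, as mt-Nd3 had a UMI in 842 spots (42.2%), mt-Nd5 in 1134 (56.9%) and mt-Nd2 in 1353 (67.9%).

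**Figure D1:**
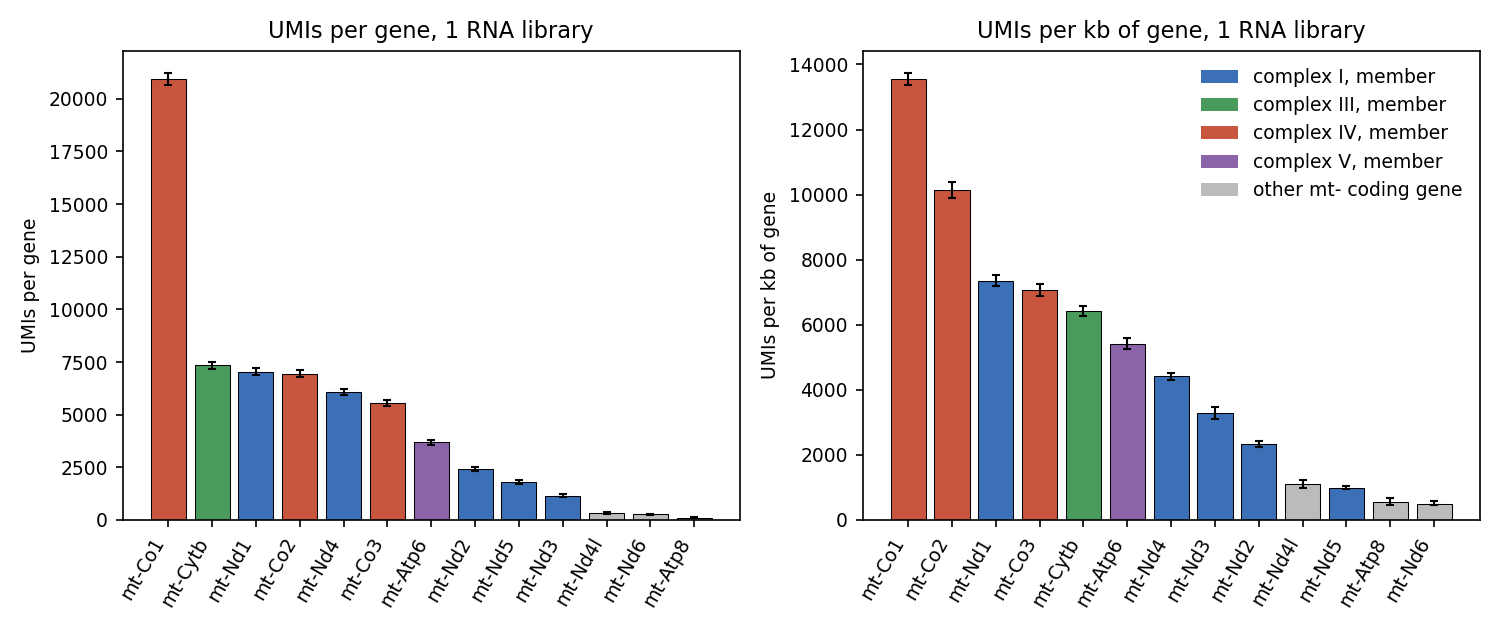
UMIs of each mitochondrial protein-coding gene in the RNA library (left) and the same per kb of gene (right), as bars from 0 with 95% Poisson intervals, coloured by respiratory complex for the 10 members and grey for the 3 other mt- coding genes. mt-Co1 stood highest on both scales, with 20936 UMIs and 13551 UMIs per kb, while mt-Nd5, the longest gene, had 986 UMIs per kb.

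Per length of gene the order changed. mt-Co1 still stood first with 13551 UMIs per kb, and mt-Co2 (10145) and mt-Nd1 (7353) followed. Next came mt-Co3 with 7079 UMIs per kb, mt-Cytb with 6427, mt-Atp6 with 5423, mt-Nd4 with 4412, mt-Nd3 with 3284 and mt-Nd2 with 2333, and mt-Nd5 was last with 986. mt-Co1 was thus 13.7 times mt-Nd5 per kb (13.1 to 14.4). Neighbours in this order differed by ratios of 1.10 to 2.37 whose intervals left out 1, apart from mt-Nd1 over mt-Co3, where the ratio was 1.04 and the lower end of the interval, 1.003 to 1.08, lay close to 1. The longest run of A within a gene was 8 bases in mt-Nd2, 7 in mt-Co1, mt-Nd4 and mt-Nd5 and 4 to 6 in the other 6, and did not follow the order of the levels.

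The 3 coding genes outside the list were far lower. mt-Nd4l had 324 UMIs, mt-Nd6 262 and mt-Atp8 114. mt-Atp8 and mt-Atp6 overlap (mt-Atp6 starts at 7927 and mt-Atp8 ends at 7969) and are known to share 1 message, as do mt-Nd4l and mt-Nd4. In both pairs the gene at the 3′ side of the message had the higher value, as mt-Atp6 was 9.70 times mt-Atp8 per kb (8.05 to 11.8) and mt-Nd4 4.04 times mt-Nd4l (3.62 to 4.54). mt-Atp8, mt-Atp6 and mt-Nd4l are repeated in full at 100% identity on chromosome 1, and mt-Nd4 in part. The part of these copies and of the gene overlaps in the ratios was not tested. mt-Nd6, the only 1 of the 13 on the minus strand, overlaps the 3′ end of mt-Nd5 by 14 bases and had 505 UMIs per kb. Since the upstream gene of a shared message was counted so much less, UMIs per kb are not message numbers.

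Summed by complex, complex IV held 53.1% of the members' UMIs (52.7% to 53.5%), complex I 29.4% (29.0% to 29.7%), complex III 11.7% (11.4% to 11.9%) and complex V 5.87% (5.68% to 6.05%). Per kb of member gene these were 11094 UMIs for complex IV, 6427 for complex III, 5423 for complex V and 3333 for complex I, so the 5 mt-Nd genes, which make up most of the length, were the lowest per length. Within complex I the genes spread from 986 UMIs per kb (mt-Nd5) to 7353 (mt-Nd1), while within complex IV they spread from 7079 (mt-Co3) to 13551 (mt-Co1). Over the 46 second-segment strips with at least 10 spots, the share of complex IV ran from 47.9% to 56.7% and that of complex I from 25.9% to 33.2%. The 47.9% came from a strip of 12 spots with 192 member UMIs, and counting error was not taken off these ranges. Complex IV held more UMIs than complex I in every one of the 46 second-segment and 50 first-segment strips.

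The nuclear-encoded partners were counted for comparison. The 83 listed nuclear subunits of complexes I to V held 236815 UMIs, 2.71% of the library, so the 10 members had 0.266 UMIs for each UMI of those subunits. The most counted were Cox6a1 (11670 UMIs) and Cox4i1 (11321) of complex IV, Uqcr11 (8991) of complex III, Atp5g1 (8481) of complex V and Ndufa3 (8041) of complex I. mt-Co1 with 20936 UMIs was above each of them, and all other members were below Uqcr11. Complex IV held 26.8% of the nuclear subunits' UMIs and complex V 24.7%, against 53.1% and 5.87% of the members' UMIs. These shares are not per length, and the numbers of genes behind them differ (16 and 17 nuclear genes, 3 and 1 members).

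For the comparison of spots, the level of a gene is its UMIs per 10000 base UMIs, the base being all UMIs of genes that are neither mt- genes nor 1 of the 4 genes that mark content. The summed member level was 72.9 over the library. Over spots its median was 71.6, 90% of spots lay between 48.9 and 103, and the SD was 16.5. Counting alone would give an SD of 14.3 at these depths, which leaves an SD of 8.32 beyond counting, or 11.4% of the level. The largest part of the spread between spots was therefore that of counting few UMIs. Of single members, mt-Nd1 had the largest spread beyond counting among the 5 most counted (24.0% of its level), against 16.4% for mt-Nd4, 12.2% for mt-Co2, 10.5% for mt-Co1 and 2.86% for mt-Cytb.

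Muscle content was taken as the level of Acta1 (skeletal muscle actin) and Ttn (titin, the spring of the sarcomere), which had 6399 and 5986 UMIs. Spots were put in 5 groups of 398 or 399 by this content, from 4.17 muscle UMIs per 10000 in the lowest group to 31.1 in the highest. The summed member level was 71.0, 71.6, 70.3 and 72.3 in the first 4 groups and 79.0 in the highest (77.7 to 80.3). The level was thus flat over most of the range and higher in the 20% of spots with most muscle. Since a spot can hold several cells, fewer cells of a type and less RNA per cell cannot be told apart.

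**Figure D2:**
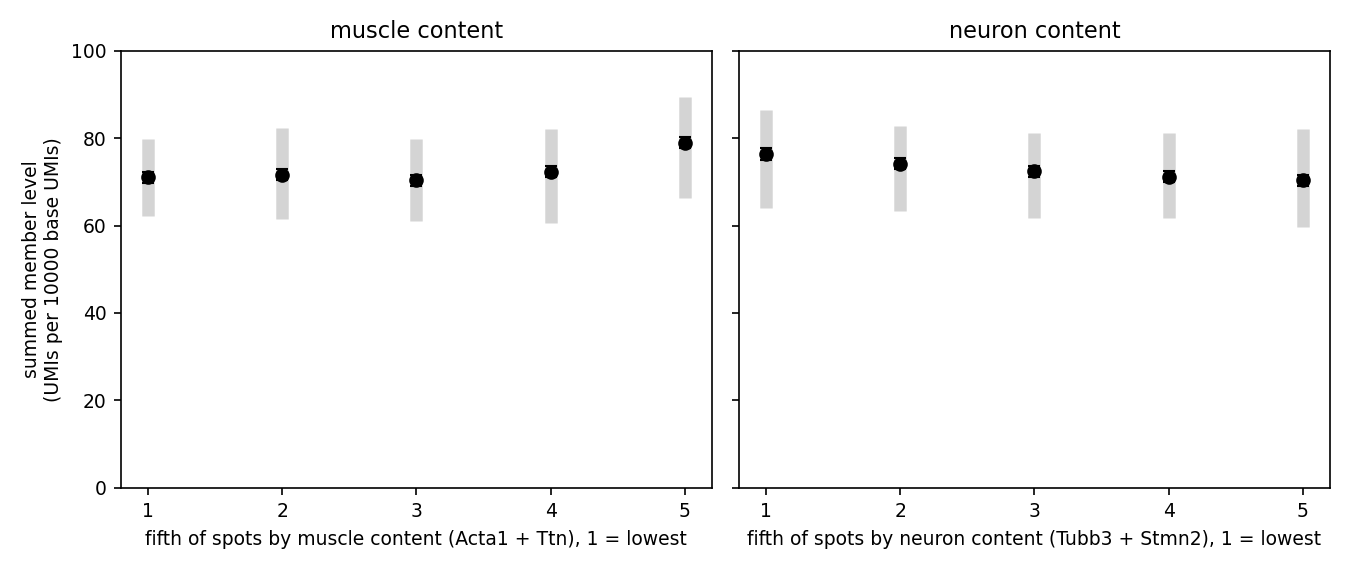
Summed level of the 10 members in UMIs per 10000 base UMIs for 5 groups of spots ordered by muscle content (Acta1 and Ttn, left) and by neuron content (Tubb3 and Stmn2, right). Points are pooled levels with 95% Poisson intervals and grey bars span the 25th to 75th percentile of single spots. The level rises to 79.0 only in the highest muscle group and goes down from 76.3 to 70.3 along neuron content, while the spots of all groups overlap widely.

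Between the 399 muscle-high spots and the 399 muscle-low spots the summed member level was 79.0 against 71.0, a ratio of 1.11 (1.08 to 1.14). Single spots overlapped widely, with 25th to 75th percentiles of 66.2 to 89.3 and of 62.2 to 79.8. All 10 members had a ratio above 1, from 1.02 to 1.30, and for 5 of them the interval left out 1. mt-Co2 was highest at 1.30 (1.21 to 1.41), with 1634 UMIs and a level of 9.39 against 1096 UMIs and 7.22. mt-Co3 stood at 1.26 (1.15 to 1.37), mt-Nd3 at 1.24 (1.03 to 1.502), mt-Atp6 at 1.16 (1.05 to 1.29) and mt-Co1 at 1.08 (1.03 to 1.13). For mt-Nd1 (1.06), mt-Nd2 (1.11), mt-Nd5 (1.13), mt-Cytb (1.02, 0.947 to 1.10) and mt-Nd4 (1.02, 0.934 to 1.10) the interval held 1.

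Of the 9 members with at least 500 UMIs in the 2 groups, mt-Co2 and mt-Co3 were at least 25% higher, the threshold used for calls, and none was at least 20% lower, which is the same ratio turned over. Of all 1223 genes with that many UMIs, 7.20% passed the threshold upwards and 12.3% downwards. The median gene had a ratio of 0.926 and the median of the 9 members was 1.11. mt-Nd3, with 270 and 190 UMIs, was under the minimum. Both calls were lost with 3 groups of spots in place of 5 (mt-Co2 1.189, mt-Co3 1.188), within second-segment strips (1.18 and 1.12) and without the 6 strips of most muscle described below (1.09 and 1.12). That of mt-Co2 was also lost with spots thinned to 2000 UMIs (1.21), and that of mt-Co3 with spots of at least 2000 UMIs (1.249) and without the strip of highest level (1.24). The muscle-high spots also had more UMIs (median 4210 against 3550), and within 5 groups of spots by base UMIs, whose median UMIs per spot ran from 2153 to 6786.5, the summed ratio was 1.12.

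Other content moved along with muscle. The 84 cytosolic ribosomal protein genes took 2.66% of the UMIs in muscle-high spots and 2.29% in muscle-low spots. The 6 connective tissue genes, led by Col1a1, took 0.256% against 0.111%, the 7 epithelial genes 0.0437% against 0.0142%, the 7 erythroid genes 0.732% against 0.650%, and the 6 fat genes 0.00983% against 0.00405%. The 12 neuron genes went the other way, with 0.505% against 0.658%, and so did the 6 choroid plexus genes, with 0.0946% against 0.192%. Nuclear-retained RNAs (9 genes) took 0.938% against 0.884%, and Malat1 among them 0.217% against 0.182%. The part of these in the difference of the member level was not tested.

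The members did not all move alike in this comparison, and the balance among them shifted. mt-Co2 made up 11.9% of member UMIs in muscle-high spots and 10.2% in muscle-low spots, a ratio of shares of 1.17 (1.08 to 1.26), and mt-Co3 9.34% against 8.25% (1.13, 1.04 to 1.23). The share of mt-Cytb was 11.1% against 12.1% (0.917, 0.851 to 0.989) and that of mt-Nd4 8.93% against 9.78% (0.913, 0.840 to 0.992). By complex, complex IV held 54.0% against 52.1%, complex I 28.8% against 29.95%, complex III 11.1% against 12.1% and complex V 6.09% against 5.83%. The changes in complex share were under 2 percentage points. In muscle-high over neuron-high spots, compared below, the ratio of shares was 1.11 (1.02 to 1.21) for mt-Co3 and 0.889 (0.816 to 0.969) for mt-Nd4. No other member and no complex had an interval that left out 1 there, and in neuron-high over neuron-low spots none had. Without the 6 strips of most muscle described below, the level ratio was 1.04 for complex IV and 1.03 for complex I, against 1.15 and 1.07 over all spots.

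The 4 members that are repeated over at least 99% of their length at 100% identity on chromosome 1 (mt-Nd3, mt-Co2, mt-Co3 and mt-Atp6) were also the 4 with the highest ratios in muscle-high over muscle-low spots. In the other 2 comparisons mt-Nd5, outside this set, stood among them. It was at 1.248 in muscle-high over neuron-high spots, above mt-Atp6 (1.24) and mt-Co2 (1.23). In neuron-high over neuron-low spots it was at 0.843, below mt-Co3 (0.850), mt-Atp6 (0.868) and mt-Co2 (0.901). This grouping was made after the values were seen. Their summed level was 23.1 in muscle-high and 18.47 in muscle-low spots, a ratio of 1.252 (1.19 to 1.31), against 55.9 and 52.5 for the other 6 members, a ratio of 1.06 (1.03 to 1.10). The ratio of the first set to the second was 1.18 times as high in muscle-high spots (1.12 to 1.24). Within second-segment strips the ratios of the 2 sets were 1.12 and 1.01. In neuron-high over neuron-low spots they were 0.872 and 0.941 over all spots and 0.984 and 0.9496 within those strips, where the order was turned. In muscle-high over neuron-high spots they were 1.247 and 1.098 over all spots and equal within strips, at 1.062 and 1.063. mt-Co1 and mt-Nd4, which are repeated in that block in part, were counted with the other 6. mt-Nd4l and mt-Atp8, which are repeated there in full, had 89 against 45 and 36 against 18 UMIs in muscle-high and muscle-low spots. Their ratios of levels were 1.73 (1.19 to 2.53) and 1.75 (0.966 to 3.27). In neuron-high and neuron-low spots they had 71 against 73 and 22 against 24 UMIs, ratios of 0.973 (0.692 to 1.37) and 0.917 (0.490 to 1.71). In muscle-high over neuron-high spots the ratios were 1.16 (0.837 to 1.62) and 1.56 (0.875 to 2.87). The part of the nuclear copies in the difference between the 2 sets was not tested. Among the 10 members the same 4 genes lie next to each other in the mitochondrial genome between 7013 and 9806, with mt-Atp8 between mt-Co2 and mt-Atp6, so copy and position cannot be told apart.

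**Figure D3:**
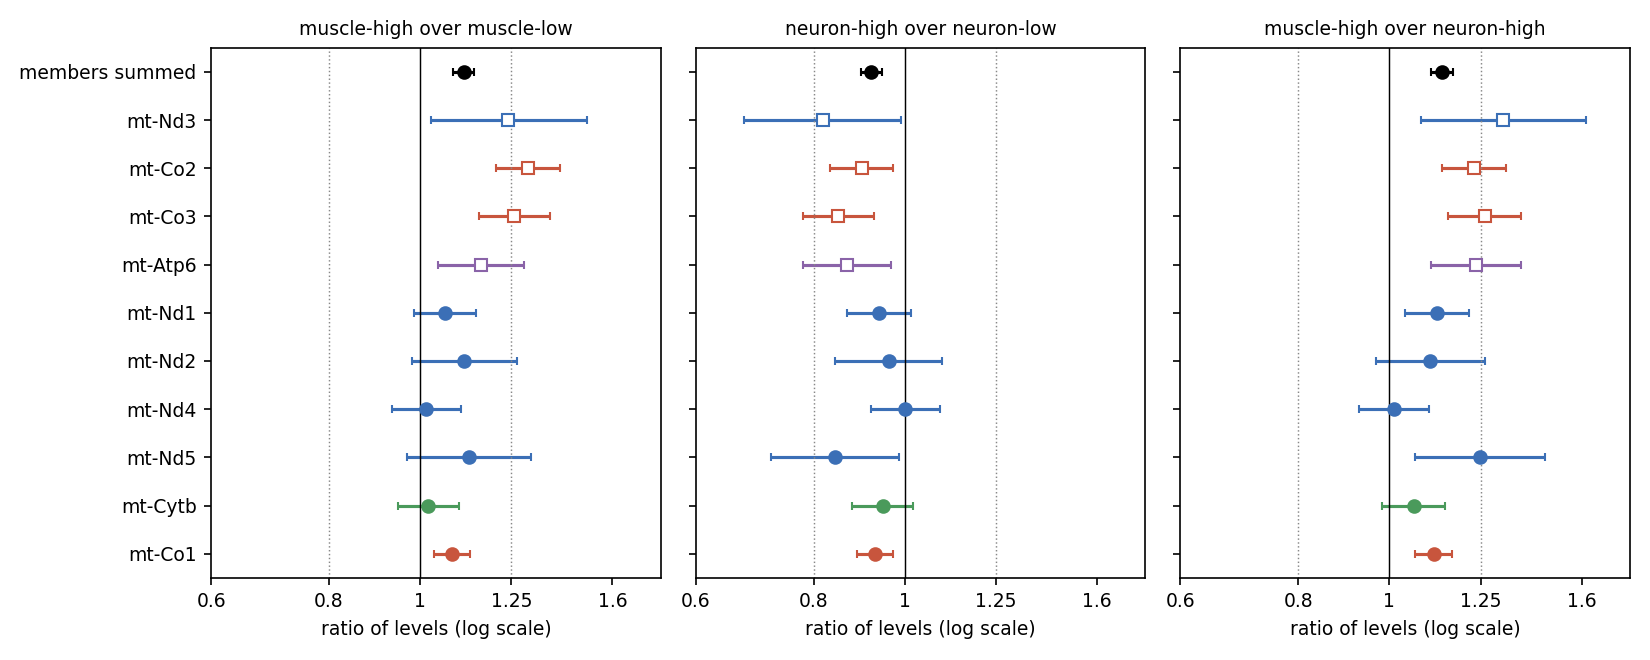
Ratio of levels (UMIs per 10000 base UMIs, log axis) for the members summed and each alone, in muscle-high over muscle-low, neuron-high over neuron-low and muscle-high over neuron-high spots, with 95% conditional binomial intervals. Colours mark complexes as in the plot of UMIs, open squares mark members with an identical nuclear copy, and dotted lines mark 25% higher and 20% lower. mt-Co2 (1.30) and mt-Co3 (1.26) stand past the upper line in the first comparison, and mt-Nd4 and mt-Cytb lie at 1.02.

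The nuclear-encoded subunits were set beside the members in the same spots. Their summed level was 291 in muscle-high and 271 in muscle-low spots, a ratio of 1.07 (1.06 to 1.09), close to the 1.11 of the members. Of the 83 listed, 63 had at least 500 UMIs in the 2 groups, of which 7 passed the threshold upwards and 0 downwards, where 7.20% of all genes passed it upwards and 12.3% downwards. Of the 7, Cox6a2, Cox7a1 and Cox8b had 113 to 149 UMIs in muscle-low spots and reached the minimum only through the muscle-high spots, where they were high. The sum was higher for complex III at 1.18 (1.14 to 1.22) and complex V at 1.10 (1.07 to 1.13), and nearer 1 for complex I at 1.04 (1.02 to 1.06) and complex IV at 1.04 (1.02 to 1.07). The complex IV sum, 13370 against 11195 UMIs, includes Cox6a2 (429 against 136), Cox7a1 (381 against 149) and Cox8b (424 against 113). It was not taken without them. Of the 14 complex IV genes with enough UMIs 8 were above 1, these genes included, with a median of 1.02. For complex I 19 of 26 were above 1, with a median of 1.06. Of the most counted subunits, Uqcr11 stood at 1.15 (1.08 to 1.23), Ndufa3 at 1.05 (0.976 to 1.13) and Atp5g1 at 1.04 (0.969 to 1.11). Complex II, which has no mitochondrially encoded subunit, stood at 0.942 (0.833 to 1.07).

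The isoform pairs of complex IV were named by rule, whatever their UMIs. Cox6a2, Cox7a1 and Cox8b are the isoforms known from heart and skeletal muscle. Cox8b had 424 against 113 UMIs, a ratio of 3.28 (2.66 to 4.07). Cox6a2 had 429 against 136 UMIs (2.75, 2.27 to 3.37), and Cox7a1 381 against 149 (2.23, 1.84 to 2.72). Of their widely expressed counterparts, Cox6a1 had a ratio of 0.858 (0.808 to 0.911), Cox7a2 1.05 (0.968 to 1.13) and Cox8a 0.987 (0.907 to 1.07). Cox4i1 was at 1.03 (0.965 to 1.09), and Cox4i2 had too few UMIs to compare (17 against 15). In the same spots mt-Co1, mt-Co2 and mt-Co3 together had a ratio of 1.15 (1.11 to 1.19).

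Genes that copy, transcribe or process mitochondrial DNA did not differ between these groups beyond counting error. The 22 listed held 721 UMIs in muscle-high and 671 in muscle-low spots, a ratio of 0.938 (0.843 to 1.04). Ssbp1, which coats single-stranded mitochondrial DNA, stood at 0.970 (0.733 to 1.29), Lrpprc, which stabilises mitochondrial messages, at 0.873 (0.627 to 1.22), and its partner Slirp at 1.18 (0.860 to 1.63). The 5 regulators of mitochondrial biogenesis together had 446 against 342 UMIs, a ratio of 1.14 whose interval (0.987 to 1.31) held 1. Among them Ppargc1b had 102 against 53 UMIs (1.68, 1.19 to 2.39), and the intervals of Ppargc1a, Nrf1, Gabpa and Esrra held 1. None of these had 500 UMIs in the 2 groups.

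Neuron content was taken from Tubb3, a neuronal tubulin (4517 UMIs), and Stmn2, a growth cone protein (5237 UMIs). Along the 5 groups of spots from low to high content, the summed member level was 76.3, 74.1, 72.4, 71.2 and 70.3. The neuron-high over neuron-low ratio was 0.921 (0.898 to 0.945), so the level was lower where neuron content was higher. 9 of the 10 members had a ratio under 1, and the interval left out 1 for mt-Nd3 at 0.818, mt-Nd5 at 0.843, mt-Co3 at 0.850, mt-Atp6 at 0.868, mt-Co2 at 0.901 and mt-Co1 at 0.9298. mt-Nd4 stood at 1.002 (0.921 to 1.09). None of the 9 members with at least 500 UMIs passed the threshold in either direction, where 6.24% of all 1217 genes passed it upwards and 5.18% downwards. The median gene had a ratio of 1.05.

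Neuron-low spots were richer in muscle. Their muscle content was 19.3 per 10000 against 11.4 in neuron-high spots, and connective (0.221% against 0.102%), epithelial (0.0411% against 0.0126%), pituitary (0.0360% against 0.00988%), choroid plexus (0.193% against 0.118%) and ribosomal protein UMIs (2.54% against 2.28%) were higher too. Erythroid genes had a summed ratio of 0.775 (0.755 to 0.796) in neuron-high over neuron-low spots. Median UMIs per spot were 3868 in neuron-high and 3891 in neuron-low spots, and the part of the other tissues in the difference was not tested. The nuclear-encoded subunits differed less than the members, with a summed level of 274 against 278 and a ratio of 0.984 (0.972 to 0.997), and Cox6a1 stood at 1.12 (1.05 to 1.19). The share of each complex among member UMIs had an interval that held 1 in this comparison, and complex IV was at 53.0% against 53.7%.

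Setting muscle against neurons directly, 348 spots were high in muscle content alone, 348 in neuron content alone, and 51 in both were left out. The summed member level was 79.2 against 69.6, a ratio of 1.14 (1.11 to 1.17). All 10 members were above 1, and the interval left out 1 for mt-Nd3 (1.32, 1.08 to 1.62), mt-Co3 (1.26, 1.15 to 1.38), mt-Nd5 (1.248, 1.07 to 1.46), mt-Atp6 (1.24, 1.11 to 1.38), mt-Co2 (1.23, 1.14 to 1.33), mt-Nd1 (1.12, 1.04 to 1.22) and mt-Co1 (1.11, 1.06 to 1.17). mt-Nd4 was again nearest to 1, at 1.01 (0.928 to 1.10). Of the 9 members with enough UMIs, mt-Co3 alone passed the threshold upwards and none downwards, against 8.16% and 19.2% of all 1115 genes, and its ratio was 1.10 within second-segment strips. The median gene stood at 0.920. The 51 spots high in both contents had a level of 77.3 (73.0 to 81.8), near that of the muscle spots. They were shallower, with a median of 2489 UMIs against 4389 in the muscle-high and 3962.5 in the neuron-high spots. The fifth of all spots with fewest base UMIs had a level of 76.0, and the part of depth was not tested. This comparison shares spots with the other 2 comparisons and is not independent of them.

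Muscle content was gathered in 6 of the 46 second-segment strips, with 25.7 to 39.3 muscle UMIs per 10000 against 8.43 to 15.1 in the other 40 strips, and these 6 strips held 216 of the 399 muscle-high spots. Their member levels were 76.5 to 89.8, with a pooled level of 81.6 (80.2 to 83.1). The other strips ran from 62.2 to 81.9, with a pooled level of 71.0 (70.4 to 71.6). The 6 strips thus had 1.15 times the level of the rest (1.13 to 1.17), although 2 of the other 40 strips, at 81.9 and 76.53, lay above the lowest of the 6. Only 3 of the 6 lay above all of the other 40, since the strip at 81.9, with a muscle content of 9.16, passed the rest.

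**Figure D4:**
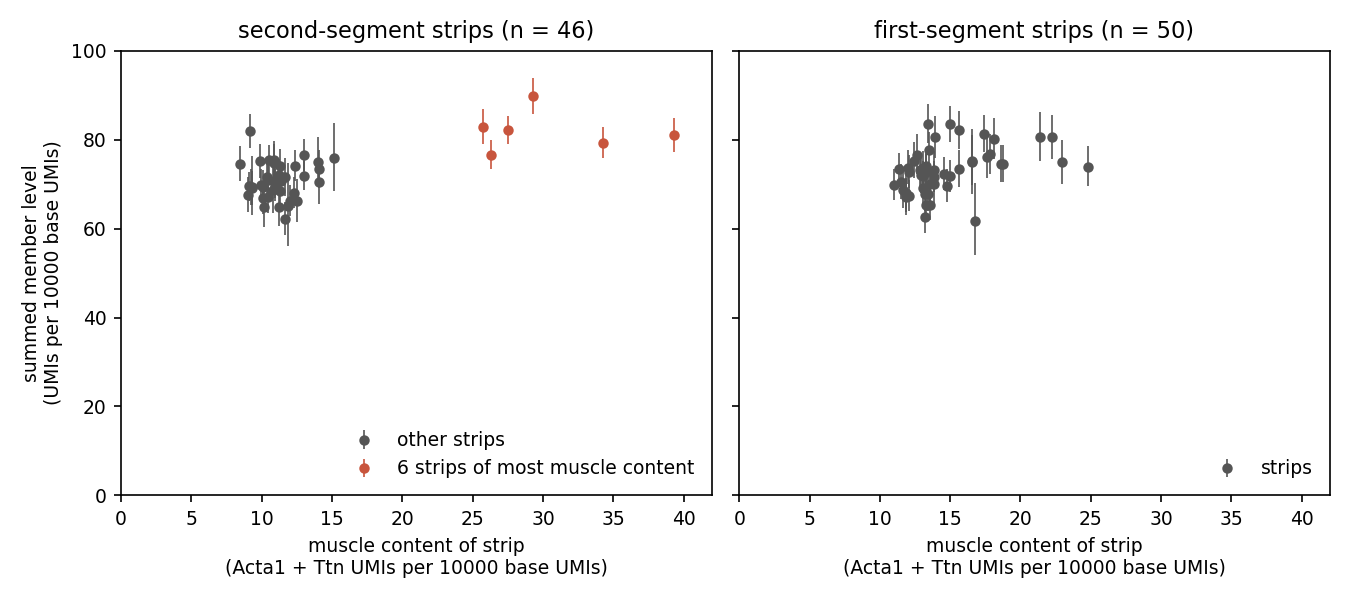
Summed member level (UMIs per 10000 base UMIs) against muscle content (Acta1 and Ttn UMIs per 10000 base UMIs) for the 46 second-segment strips (left) and the 50 first-segment strips (right), each point a strip with its 95% Poisson interval. The 6 second-segment strips with most muscle (red) lie at levels of 76.5 to 89.8, and the other 40 at 62.2 to 81.9.

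Within second-segment strips the muscle difference was small. Comparing muscle-high with muscle-low spots of the same strip (Mantel-Haenszel rate ratio over 43 strips) gave 1.04 (0.999 to 1.08) for the summed level, against 1.11 over all spots. After leaving out the 6 strips the ratio was 1.02 (0.994 to 1.05), with the high and low groups chosen again among the remaining 1713 spots. Within first-segment strips, each of which crosses the 6 strips, it was 1.10. Of single members within second-segment strips, mt-Co2 had a ratio of 1.18 (1.05 to 1.32), and its interval was the only 1 of the 10 that left out 1. mt-Nd3 stood at 1.248 (0.960 to 1.62), mt-Co3 at 1.12 (0.981 to 1.27), mt-Nd2 at 1.05, mt-Cytb at 1.04 and mt-Co1 at 1.02. mt-Atp6 (0.990), mt-Nd1 (0.987), mt-Nd5 (0.955) and mt-Nd4 (0.952) were below 1. The neuron ratio within second-segment strips was 0.959 (0.928 to 0.991), and muscle-high over neuron-high was 1.06 (1.02 to 1.11). The 6 strips held 216 muscle-high but only 5 muscle-low spots, so most muscle-high spots there had few or no spots to be compared with in their own strip. With the same groups outside the 6 strips, 183 muscle-high spots had a level of 73.9 and 394 muscle-low spots 70.8, a ratio of 1.04 (1.01 to 1.08). Inside the 6 strips the ratio was 0.909 (0.770 to 1.08). Strip and muscle content cannot be told apart for the rest of the difference.

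Over all second-segment strips the member level had a CV of 7.64%, and one of 6.94% once the counting variance was taken off. Over the first-segment strips these were 7.03% and 6.38%. mt-Co2 spread most beyond counting (12.6% over second-segment strips, from 4.74 to 11.6 per 10000), and mt-Co3 (11.9%), mt-Atp6 (11.02%) and mt-Nd1 (10.2%) followed, whereas mt-Cytb was the most even with 3.06%. Over first-segment strips the order was another, with mt-Nd3 at 11.5%, mt-Co3 at 7.46%, mt-Co2 at 4.85%, mt-Cytb at 2.17% and no spread beyond counting for mt-Nd2 and mt-Nd5. The mt-Nd3 value rests on few UMIs, 1143 in the library. Its SD over these strips was 0.331 against a counting SD of 0.294, so its place in the order is uncertain. Across the 46 second-segment strips the closest pairs of members were mt-Co2 with mt-Atp6 (Spearman rho 0.596) and mt-Co1 with mt-Co2 (0.592). Of the 45 pairs 42 had a rho above 0, with a median of 0.218. Against the sum of the other 9 members, mt-Nd1 had the lowest rho (0.162) and mt-Co2 the highest (0.724). Over the 50 first-segment strips the order differed, with mt-Nd2 lowest (0.168), mt-Co1 highest (0.688), mt-Nd1 at 0.641 and mt-Co2 at 0.438. These points share 1 library and the same base.

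Over single spots the member level was weakly related to content, with a Spearman rho of 0.127 with muscle content and -0.105 with neuron content over 1993 spots. Over second-segment strips the values were 0.392 and -0.406, and over first-segment strips 0.501 and -0.285. The level went more closely with ribosomal protein genes (0.619) than with the nuclear-encoded respiratory subunits (0.197) over second-segment strips, while over first-segment strips the order was turned (0.343 and 0.673). The 9 nuclear-retained RNAs together had a rho of 0.00512 over second-segment and 0.0589 over first-segment strips, but Malat1 alone had 0.445 and 0.313.

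Spots rich in other tissues were compared in the same way, each list being set against all other spots. The 20% of spots with most UMIs of the 12 muscle genes had a member level of 81.2 (79.9 to 82.5), the highest of the 10 lists with at least 1000 UMIs. Connective tissue spots stood at 77.9, erythroid spots at 77.3, epithelial spots at 75.4, microglia spots at 74.5, choroid plexus spots at 74.0, radial glia spots at 73.8, pituitary spots at 73.7 and endothelial spots at 72.8, and neuron spots were lowest at 69.7 (68.4 to 71.0). From connective tissue to endothelial spots, neighbours in this order had overlapping intervals, whereas muscle spots lay above and neuron spots below their neighbours. Outside the 6 muscle-rich strips the ratio to other spots was 1.08 (1.05 to 1.12) for muscle, 1.06 (1.04 to 1.09) for erythroid, 1.02 (0.987 to 1.05) for connective and 0.970 (0.9502 to 0.991) for neuron spots. Radial glia spots stood at 1.04 (1.01 to 1.06) there and epithelial spots at 1.03 (1.003 to 1.06). Microglia spots were at 1.03 (1.004 to 1.05) and choroid plexus spots at 1.02 (1.00015 to 1.05). The intervals of pituitary and endothelial spots held 1. The lists also picked spots of unlike depth, with median UMIs from 3472 (pituitary) to 4355 (muscle), and 3601 for microglia and 3531 for choroid plexus spots. The member level was 76.0 in the fifth of spots with fewest base UMIs and 72.0 in that with most. The part of depth in these ratios was not tested. Inside the 6 strips the ratio was 1.01 (0.943 to 1.09) for muscle, 0.974 (0.937 to 1.01) for connective, 1.05 (1.004 to 1.09) for erythroid and 0.924 (0.892 to 0.958) for epithelial spots, the last against 1.03 outside them. Choroid plexus spots stood at 1.06 (1.01 to 1.12) inside the strips and endothelial spots at 1.05 (1.004 to 1.10). The intervals of microglia (58 spots), radial glia (52 spots) and pituitary spots (53 spots) held 1 there. So did that of neuron spots, but only 1 of them lay inside the strips, so its ratio says nothing of neuron spots there.

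The genes whose level over the 46 second-segment strips was most like the summed member level were found among 3970 genes with at least 500 UMIs. They were Flnc, a muscle filamin (rho 0.615), Crip1 (0.602), Cdkn1c, an inhibitor of the cell cycle (0.597), Etfb, a subunit of the electron transfer flavoprotein that feeds electrons to the respiratory chain (0.596), and Rplp1, a ribosomal protein (0.594). Nfic (0.580), Wasf2 (0.571), Itgb1bp2, a muscle protein (0.569), Nes (0.558) and Atp2a1, the calcium pump of fast muscle (0.550), followed. The lowest were Psd (-0.652), Dlgap1, a postsynaptic scaffold (-0.639), Lingo2 (-0.625), Cntnap5a (-0.620) and the presynaptic Nrxn3 (-0.608). Over first-segment strips, which this ranking did not use, Etfb had a rho of 0.465 and Atp2a1 0.323, while Cdkn1c had 0.0267, Psd -0.0509 and Cntnap5a 0.212.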

How the data were processed

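The deposited matrix gives raw UMI counts per gene and spot, made by the authors with cellranger-arc 2.0.1 on an mm10 reference per the file headers. The submitters' processing notes also name Seurat 4.0. The rule that kept 1993 spots is not given in the sources used here, and the counts are not normalised. Positions of the genes came from GENCODE M21 and sequences from RefSeq, both for GRCm38, with nuclear copies found by blastn 2.17.0. Levels, shares and ratios were computed in Python 3.11.15 with scipy 1.17.1. Genes with at least 500 UMIs over both groups were called at 25% higher or 20% lower. The all-gene ratios used a pseudocount of 0.5 UMIs. The low and high groups were the spots at or below the 20th and above the 80th percentile of content. Strips under 10 spots were left out of strip values. With 1 library per assay no test was made, and the ratio and Mantel-Haenszel functions were tested on simulated data. Named genes were the members, the 3 most counted nuclear subunits per complex, the isoform pairs of complex IV, the 3 most counted genes of mitochondrial DNA expression, and the 10 genes most and 5 genes least like the members, by rank correlation over strips. The regulators of biogenesis were named as a short list. The members and lists were chosen with earlier results of these data known. Accessibility data were not used here.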

Additional observations from a re-analysis of the deposited data

How the results depend on the processing

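The size of the summed ratios depended on strips, and the muscle difference did not stand clear of counting error in some alternatives. The muscle ratio of 1.11 became 1.07 with 3 groups of spots in place of 5, 1.15 with 12-gene lists as content, 1.04 (0.999 to 1.08) within second-segment strips, and 1.02 (0.994 to 1.05) without the 6 muscle-rich strips, the last an alternative chosen after seeing the data. Inside those 6 strips, with 5 muscle-low spots, it was 0.909 (0.770 to 1.08). In the same order where they moved, the neuron ratio of 0.921 became 0.892, 0.959 and 0.961, and muscle over neuron, 1.14, became 1.11, 1.18, 1.06 and 1.03. The Spearman correlation over spots with muscle (0.127) and neuron content (-0.105) became 0.392 and -0.406 over second-segment strips, 0.501 and -0.285 over first-segment strips, and 0.0277 and -0.0533 without the 6 strips. Among members and complexes whose interval over all spots left out 1, direction turned within second-segment strips for mt-Atp6 (muscle 0.990, muscle over neuron 0.949), mt-Co2 (neuron 1.02) and complex I (muscle 0.997), and without the 6 strips for mt-Co1 (muscle 0.996), mt-Atp6 (0.924 and 0.965) and mt-Co2 (neuron 1.01). Ratios whose interval already held 1 crossed it for mt-Nd1, mt-Nd4 and mt-Nd5 (muscle 0.987, 0.952 and 0.955) and mt-Nd4 (neuron 0.972) within second-segment strips, and for mt-Nd1 without the 6 strips (muscle 0.991, neuron 1.002). They also crossed with spots thinned to 2000 UMIs for mt-Nd2 (neuron 1.02), mt-Nd4 (neuron 0.926) and mt-Cytb (neuron 1.002, muscle over neuron 0.969), and for neuron mt-Nd4 with 12-gene lists (0.957) and within groups by base UMIs (0.9995). The share of the library, 0.721%, was 0.760% without Gm42418 and 0.703% without the 6 strips. With all 13 genes, complex I held 29.96% and complex IV 52.5%. The cause of these shifts was not tested.

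Counts of genes depended on the fold and on the minimum UMIs. At 1.5-fold, genes higher and lower numbered 47 and 9 of 1223 (muscle), 2 and 32 of 1217 (neuron) and 48 and 19 of 1115 (muscle over neuron). With a minimum of 100 UMIs they numbered 820 and 915 of 6761, 700 and 715 of 6688, and 837 and 1053 of 6446, and with 2000 UMIs 21 and 20 of 154, 8 and 12 of 154, and 20 and 28 of 138. Of nuclear subunits, 1.5-fold left 3 of 63 higher (muscle), 0 of 59 lower (neuron) and 2 of 58 higher (muscle over neuron). The 3 were Cox6a2, Cox7a1 and Cox8b, and the 2 were Cox6a2 and Cox8b. These reached the minimum only through the muscle-high spots, where they were high, so these counts say nothing of the other subunits. A minimum of 100 UMIs gave, of 80, 10 higher and 1 lower (muscle), 1 higher and 5 lower (neuron) and 10 higher (muscle over neuron). No paired analysis was possible because there was 1 RNA library. Depth limits mt-Nd3, mt-Nd5 and mt-Nd2 most, as many spots held none of their UMIs.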
